A study of Mus musculus with 12 samples.

Results

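*Csf2*, which encodes GM-CSF, was followed in sorted CD4+ T cells together with the chains of its receptor, *Csf2ra* and *Csf2rb*, the beta chain paralog *Csf2rb2* and *Csf1*, which encodes the related growth factor M-CSF. These 5 genes were taken by name, without regard to their values, from the 17523 genes of the table. All 5 passed the filter on low values (5 normalized counts or more in 3 or more libraries) and were tested with the 15587 genes that did so.

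GM-CSF is secreted by activated T cells and by other cells and acts on myeloid and dendritic cells. It binds a specific alpha chain, encoded by *Csf2ra*, which then joins the common beta chain encoded by *Csf2rb*. The common beta chain is shared with the receptors of IL-3 and IL-5 and signals through JAK2 and STAT5. *Csf2rb2* encodes a mouse beta chain that serves IL-3 with the IL-3 receptor alpha chain. M-CSF acts through an unrelated receptor, a tyrosine kinase encoded by *Csf1r*, on monocytes and macrophages.

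The cells were splenic, from unimmunized Gr/fr mice on the C57BL/6 background, described in the methods as 2 to 3 months old for sorted populations. In these mice a *Csf2* allele also drives iCre and BFP, and iCre removes a stop sequence from an eYFP gene at Rosa26, so that a cell that has expressed *Csf2* keeps YFP. Naïve cells (CD44-) and T_EM cells (CD44hi) were each sorted into YFP- and YFP+ cells, giving 4 groups of 3 libraries, and every group carried both transgenes. Because YFP is permanent, the sort records past as well as ongoing *Csf2* expression, and because it is driven by *Csf2* itself, *Csf2* is a check of the sort and no independent result. The sources used here do not say how many animals went into a library, so p-values measure the spread between libraries.

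Values are given as normalized counts, in which a library's reads have been divided by its DESeq2 size factor. Libraries held from 40974124 to 57822269 reads on genes. The sort labels held for *Cd44*, at 2334 to 3372 normalized counts in the 6 naïve libraries and 21778 to 29383 in the 6 T_EM libraries, and the summed level of 10 CD4 T cell genes lay between 293104 and 400549 in all 12. Genes of other cells were present too. The summed level of 12 conventional dendritic cell genes ranged from 173006 to 361036 in YFP- T_EM cells, from 11316 to 28522 in YFP+ T_EM cells and from 3289 to 5565 in YFP- naïve cells. It was, in the YFP+ naïve libraries, 4122 in replicate 1, 11662 in replicate 2 and 4336 in replicate 3. Replicate 2 of the YFP+ naïve cells also had 5727 normalized counts over 12 monocyte and macrophage genes, against 777 and 1219 in the others of its group. This library stands apart, and values that rest on it are also given without it.

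The sequences that bear on how these genes could be counted are shown first. The study's iCre and BFP cassette, which ends in a pA element, was placed at the end of *Csf2* exon 4, before the 3′ UTR. The coding exons are thus intact in the changed allele, and reads on them were counted together whichever allele they came from. Of the 800 exon bases of *Csf2*, 426 are coding. Whether transcripts of the changed allele include the 3′ UTR is not given in the sources used here. The last 60 coding bases of *Csf2* (GRCm38, chr11:54247588-54247647, minus strand, GENCODE M21) are given with the stop codon in capitals.
Csf2: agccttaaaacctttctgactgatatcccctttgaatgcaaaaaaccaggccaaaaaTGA

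*Csf2rb* and *Csf2rb2* are neighbours on chromosome 15, and their coding sequences of 2691 and 2637 bases were identical at 95.2% of the positions aligned without a gap. The first 120 coding bases of both show this, with the 4 bases that differ in capitals. They span an intron in each gene, from chr15:78335207-78336379 on the plus strand for *Csf2rb* and from chr15:78297071-78298229 on the minus strand for *Csf2rb2*.
Csf2rb: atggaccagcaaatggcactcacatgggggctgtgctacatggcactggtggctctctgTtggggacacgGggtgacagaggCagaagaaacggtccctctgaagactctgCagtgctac
Csf2rb2: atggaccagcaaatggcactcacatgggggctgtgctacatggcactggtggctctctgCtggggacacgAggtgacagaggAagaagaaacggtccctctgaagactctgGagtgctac
Of all 100-base windows of the *Csf2rb* coding sequence, 11% occur unchanged in *Csf2rb2*, and of the 50-base windows 26% do. How reads that fit both genes were counted is not given in the sources used here, so the division of reads between these genes is uncertain, and they were also fitted as a sum.

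*Csf2* (Entrez 12981, chromosome 11, 54247270 to 54249899 in GRCm38.p6, overlapping *Gm12223*) was measured above a few reads in YFP+ T_EM cells alone. The 3 YFP+ T_EM libraries had 139, 55.9 and 152 normalized counts, which are 137, 54 and 160 reads. The 3 YFP- T_EM libraries had 3, 1 and 2 reads. The YFP- naïve libraries had 0, 0 and 3 reads and the YFP+ naïve libraries 1, 4 and 2. YFP+ T_EM cells therefore stood apart from all other groups without overlap, and replicate 2 was the lowest of them. The mean of the YFP+ T_EM cells, 116 ± 52.0 (SD, n = 3), was 44.8-fold above a set floor of 3 reads per YFP- T_EM library. By reads alone, 351 against 6, *Csf2* was 69.1-fold higher in YFP+ T_EM cells. The exact 95% interval, 31.4 to 190, covers counting error only. The log2 fold change in limma was 5.34 (SE 0.68), with an adjusted p of 5.5e-04 that ranged from 2.0e-10 to 0.0165 over 23 alternatives. This fitted value depends on the prior count because YFP- cells lay at the floor. Some genes of other cells that can make GM-CSF moved with *Csf2*. Of 6 NK cell and ILC genes, 3 were called higher (*Ncr1*, *Klrb1c* and *Klre1*). *Eomes*, *Il1rl1* and *Rora* were not called, with log2 fold changes of -0.43, -0.27 and 0.64. The summed level of the 6 genes was 2536 to 3830 normalized counts in YFP- and 3527 to 6006 in YFP+ T_EM cells. In YFP- T_EM cells *Rora*, *Il1rl1* and *Eomes* led this sum, with means of 1279, 1223 and 527. It therefore says little about the 3 called genes, of which *Klrb1c* had a mean of 154 in YFP- and 1304 in YFP+ T_EM cells. Of 4 neutrophil and mast cell or basophil genes, 1 was called higher (*Cpa3*). Their summed level was 0 to 8.89 in YFP- and 70.4 to 228 in YFP+ T_EM cells. The part of these other cells in the *Csf2* value was not tested.

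**Figure D1:**
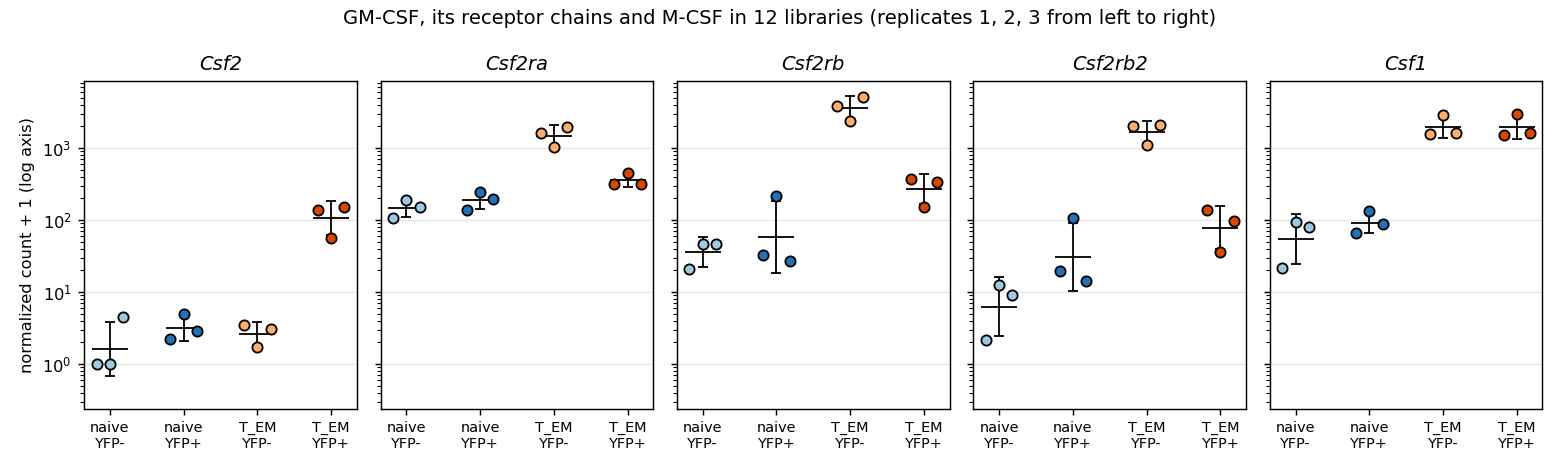
Normalized count plus 1 on a log axis for the 5 genes, with a point for each library (replicates 1, 2 and 3 from left to right), and the geometric mean with 1 SD of the log values for each group of 3. *Csf2* is high in the 3 YFP+ T_EM libraries, the 3 receptor genes are highest in YFP- T_EM cells, and *Csf1* is high in both T_EM groups.

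The alpha chain gene *Csf2ra* (Entrez 12982, chromosome 19, 61217191 to 61228461, with no overlapping gene in RefSeq) went the other way. In YFP- T_EM cells its 3 libraries had 1630, 1044 and 1949 normalized counts. In YFP+ T_EM cells they had 315, 450 and 314. The groups did not overlap, and in all 3 pairs of replicate numbers the YFP+ library was lower. In limma *Csf2ra* fell by 2.07 on the log2 scale in YFP+ cells (SE 0.29, adjusted p = 9.6e-04), which is 4.20-fold, and it passed in 23 of 23 alternatives. In the naïve cells the level of *Csf2ra* was lower. The YFP- libraries had 106, 189 and 152 normalized counts and the YFP+ libraries 137, 245 and 196, so the fractions overlapped, although YFP+ was higher in all 3 pairs of replicate numbers.

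The common beta chain gene *Csf2rb* (Entrez 12983, chromosome 15, 78325800 to 78351001, overlapping *Mir7676-2*) had the largest decrease in normalized counts of the 5 genes. The YFP- T_EM libraries had 3816, 2344 and 5094 normalized counts. The YFP+ T_EM libraries had 375, 152 and 341. Replicate 2 was the lowest library in both fractions, and the ranges were far apart. *Csf2rb* fell by 3.73 (SE 0.68, limma adjusted p = 0.0044), a 13.2-fold decrease that passed in 23 of 23 alternatives, with a highest adjusted p of 0.0293 without YFP- T_EM replicate 3.

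The paralog *Csf2rb2* (Entrez 12984, chromosome 15, 78282507 to 78305721, overlapping *Mir7676-1*), the beta chain for IL-3, followed the same course. It had 2031, 1113 and 2071 normalized counts in YFP- T_EM cells and 137, 35.2 and 96.0 in YFP+ T_EM cells. The log2 fold change was -4.41 (SE 0.81, limma adjusted p = 0.0046), and it passed in 22 of 22 alternatives. With both beta chain genes summed, the log2 fold change was -3.91 (adjusted p = 0.0037). The sum is mostly *Csf2rb* and does not show how far the *Csf2rb2* value depends on the division of reads. The ratio of *Csf2rb* to *Csf2rb2* normalized counts was 1.88, 2.11 and 2.46 in YFP- T_EM cells and 2.73, 4.32 and 3.55 in YFP+ T_EM cells, which do not overlap.

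Thus 1 of the 5 genes was called higher and 3 were called lower in YFP+ than in YFP- T_EM cells at an adjusted p of 0.05 or less. Among all 15587 genes tested, 2.3% were called higher and 4.67% lower in this comparison. The median log2 fold change of the 5 genes was -2.07 and that of all genes tested -0.01. With 3 libraries on each side the smallest p of an exact unpaired permutation test is 0.1. These calls therefore depend on limma's variance estimate, which borrows from all genes. The main fit did not pair the libraries by number, and in the alternative that did, 4 of the 5 genes were called.

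Genes of dendritic cells moved with the receptor genes. In YFP+ against YFP- T_EM cells, 11 of 12 conventional dendritic cell genes were called lower (*Flt3*, *Itgax*, *Zbtb46*, *Clec9a*, *Cd209a*, *Clec10a*, *H2-Aa*, *H2-Ab1*, *H2-Eb1*, *Cd74* and *Ciita*), and 0 of 12 higher. *Itgax*, the CD11c integrin chain, had 5454 to 10593 normalized counts in YFP- and 245 to 607 in YFP+ T_EM cells. Of 10 plasmacytoid dendritic cell genes, 8 were called lower (*Siglech*, *Bst2*, *Tcf4*, *Spib*, *Irf8*, *Ly6d*, *Klk1* and *Cox6a2*). *Siglech*, a surface marker of these cells, had 1412 to 3367 normalized counts in YFP- T_EM cells, 26.9 to 118 in YFP+ T_EM cells and at most 1.15 in YFP- naïve cells, where 3 of the 10 genes were at 3 reads or fewer in every library. Of 12 monocyte and macrophage genes, 5 were called lower (*Adgre1*, *Cd68*, *Itgam*, *Ly6c2* and *Spi1*) and 7 were not called. Among the latter, *Cd14*, *Mertk*, *Fcgr1*, *C1qb* and *C1qa* went the other way, with log2 fold changes of 2.20, 1.99, 1.68, 1.43 and 1.41. *Csf1r* and *Lyz2* had -0.84 and -0.87. Of 8 B cell genes, 2 were called higher (*Cd79a* and *Ebf1*). Of 10 CD4 T cell genes and 4 memory T cell genes, 0 were called in either direction.

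The receptor genes were also read per unit of the summed marker genes. The conventional dendritic cell sum is mainly *Cd74*, *H2-Ab1*, *H2-Eb1* and *H2-Aa*, with means of 106272, 51478, 42688 and 37665 in YFP- T_EM cells. The next gene of that list, *Itgax*, had a mean of 8001 there. Ratios and correlations with this sum therefore read mostly these MHC class II presentation genes. Per 1000 normalized counts of the 12 conventional dendritic cell genes, *Csf2rb* had 16.0, 13.5 and 14.1 in YFP- T_EM cells and 13.2, 13.5 and 14.7 in YFP+ T_EM cells, ranges that overlap. Per 1000 of the 10 plasmacytoid dendritic cell genes it had 148 ± 33.2 in YFP- and 27.2 ± 12.2 in YFP+ T_EM cells (SD, n = 3). Per 1000 of the 12 monocyte and macrophage genes it had 276, 208 and 249 in YFP- and 56.5, 45.8 and 77.7 in YFP+ T_EM cells, and neither of these ratios overlapped. The level of *Csf2rb* thus overlapped between the fractions relative to the first of these sums and was lower in YFP+ cells relative to the others. The plasmacytoid sum was led in YFP+ T_EM cells by *Pacsin1*, *Runx2* and *Bst2*, with means of 4473, 2450 and 1771. Of these, *Pacsin1* and *Runx2* were not called between the T_EM fractions. *Siglech*, in the same list, fell from a mean of 2681 to 66.8, a steeper fall than that of *Csf2rb*. This ratio therefore depends on the genes summed. Per 1000 of the conventional dendritic cell genes, *Csf2ra* had 6.83, 6.04 and 5.40 in YFP- and 11.1, 39.8 and 13.5 in YFP+ T_EM cells, without overlap. For *Csf2rb2* it was 8.52, 6.43 and 5.74 in YFP- and 4.82, 3.11 and 4.14 in YFP+ T_EM cells, also without overlap. Over the 12 libraries, which share depth and groups, the log2 level of the summed dendritic cell genes had a Pearson r of 0.991 with *Csf2rb*, 0.968 with *Csf2rb2*, 0.970 with *Csf2ra*, 0.788 with *Csf1* and 0.091 with *Csf2*. These ratios and coefficients were chosen with the values known. The part of other cells in the receptor results was not tested, and in bulk RNA fewer cells of a type and less RNA per cell cannot be told apart.

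**Figure D2:**
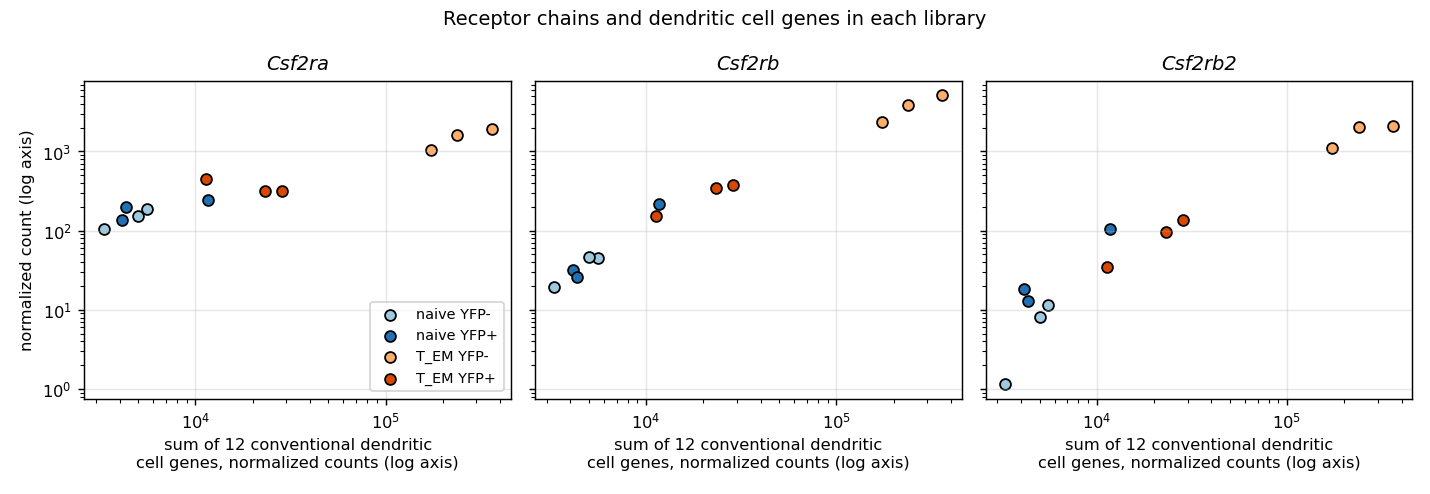
Normalized counts of the 3 receptor genes (y, log axis) against the summed normalized counts of 12 conventional dendritic cell genes (x, log axis), with a point for each of the 12 libraries. The YFP- T_EM libraries lie at the upper right, at sums of 173006 or more, and YFP+ naïve replicate 2, at 11662, lies among the YFP+ T_EM libraries for *Csf2rb* and *Csf2rb2*.

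*Csf1*, the gene of M-CSF (Entrez 12977, chromosome 3, 107741048 to 107760469, overlapping *Gm40121*), did not follow YFP. The YFP- T_EM libraries had 1579, 2915 and 1638 normalized counts. The YFP+ T_EM libraries had 1528, 3000 and 1597. Replicate 2 was the highest in both fractions, and the spread between replicate numbers was larger than that between fractions. The log2 fold change was -0.01 (SE 0.50, limma adjusted p = 0.997) and a 95% interval from -1.09 to 1.06. With the libraries paired by number, the SE was 0.29 and the adjusted p 0.987. The sign of this value was positive in 6 of 23 alternatives, quantile normalization, TMM factors and edgeR among them. *Csf1r*, the receptor of M-CSF, had 1373 to 2384 normalized counts in YFP- and 690 to 1647 in YFP+ T_EM cells, and the groups overlapped (log2 fold change -0.84, adjusted p = 0.83).

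Between YFP+ and YFP- naïve cells, 0 of the 5 genes were called by limma, edgeR or DESeq2, and 1, *Csf2rb2*, had an unadjusted p under 0.05 in limma, as did 518 of all 15587 genes tested. DESeq2 gave no adjusted p for *Csf2* here. Among all genes tested, 0.00642% were called higher, which is the gene *Chn2*, and 0% lower. The *Csf2rb2* libraries had 1.15, 11.7 and 8.06 normalized counts in YFP- and 18.6, 105 and 13.0 in YFP+ naïve cells, without overlap. The log2 fold change was 2.29 (SE 0.81, unadjusted p = 0.0147, limma adjusted p = 1), and it was 1.40 without YFP+ naïve replicate 2, the library with the raised macrophage and dendritic cell genes. *Csf2rb* had 19.6, 45.6 and 46.1 normalized counts in YFP- and 32.2, 216 and 26.0 in YFP+ naïve cells. The log2 fold change of 0.70 rested on that library and was -0.25 without it.

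The naïve log2 fold changes of the other genes were 0.94 for *Csf2* (95% interval -0.54 to 2.43), 0.37 for *Csf2ra* (-0.26 to 1.00) and 0.75 for *Csf1* (-0.33 to 1.83). For *Csf2* this compares 3 with 7 reads over 3 libraries each. *Csf1* had 20.7, 94.4 and 78.3 normalized counts in YFP- naïve cells and 65.5, 131 and 88.4 in YFP+ naïve cells, so the fractions overlapped, although YFP+ was higher in all 3 pairs of replicate numbers.

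Whether YFP+ cells differed from YFP- cells by another amount in T_EM than in naïve cells was tested as the difference of the 2 log2 fold changes. Of the 5 genes, 1 was called higher and 3 lower, where 0.828% and 2.73% of all genes tested were. The difference was -2.44 for *Csf2ra* (SE 0.41, limma adjusted p = 0.0073), -4.43 for *Csf2rb* (SE 0.96, adjusted p = 0.0238) and -6.71 for *Csf2rb2* (SE 1.14, adjusted p = 0.0081). Without YFP+ naïve replicate 2 these were -2.25 (adjusted p = 0.0127), -3.47 (adjusted p = 0.0116) and -5.81 (adjusted p = 0.0082). It was 4.40 for *Csf2* (SE 0.96, adjusted p = 0.0255), which passed in 14 of 23 alternatives, with an adjusted p of 0.148 in edgeR and 0.622 with a prior count of 0.1. The *Csf2rb* difference passed in 18 of 23 and had an adjusted p of 0.0782 without YFP- T_EM replicate 3 and 0.0652 without YFP- T_EM replicate 1. For *Csf1* it was -0.77 (adjusted p = 0.879).

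**Figure D3:**
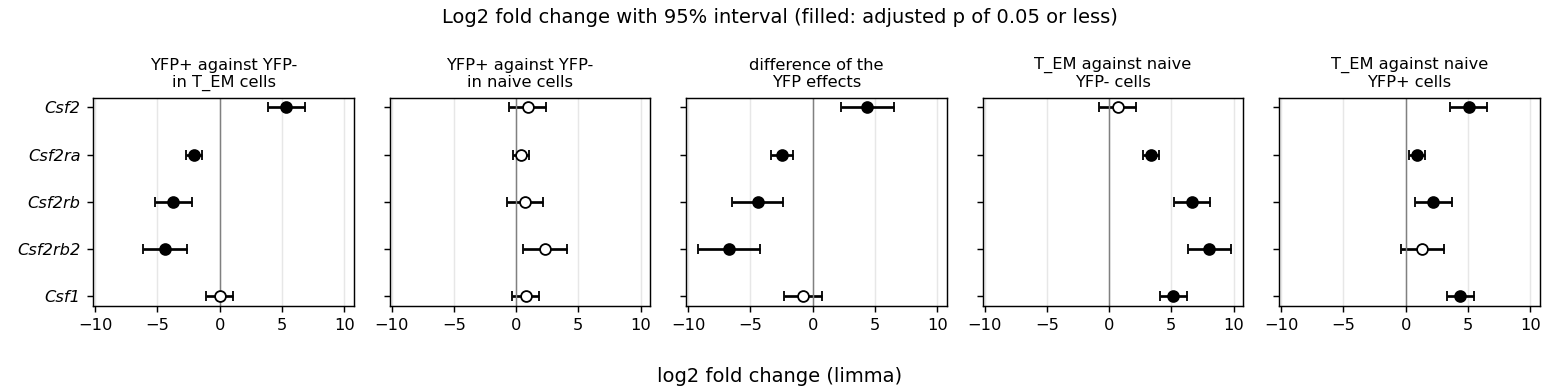
Log2 fold change of the 5 genes (x) with its 95% interval in 5 panels, which are the YFP comparisons in T_EM and in naïve cells, their difference, and T_EM against naïve cells in each YFP fraction, with filled points for an adjusted p of 0.05 or less. The 3 receptor genes lie below 0 in the first panel at -2.07, -3.73 and -4.41, while *Csf2* lies at 5.34 and *Csf1* at -0.01.

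T_EM cells were also set against naïve cells within each YFP fraction. Among YFP- cells, 4 of the 5 genes were called higher in T_EM cells and 0 lower, where 29.9% of all genes tested were called higher and 19.9% lower. The log2 fold changes were 8.06 for *Csf2rb2* (SE 0.81, limma adjusted p = 4.4e-06), 6.65 for *Csf2rb* (SE 0.68, adjusted p = 5.0e-06), 5.16 for *Csf1* (SE 0.50, adjusted p = 3.0e-06) and 3.35 for *Csf2ra* (SE 0.29, adjusted p = 1.3e-06). All 4 passed in every alternative. *Csf2* had 3 reads in naïve and 6 reads in T_EM YFP- cells over 3 libraries each, so no change was detectable at this depth. The receptor genes again moved with dendritic cell genes, 12 of 12 of which were called higher in this comparison.

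Among YFP+ cells, 4 of 5 genes were called higher in T_EM cells and 0 lower, where 24.7% and 16.7% of all genes tested were. *Csf2* rose by 5.08 (SE 0.68, limma adjusted p = 7.4e-05) and *Csf1* by 4.40 (SE 0.50, adjusted p = 1.7e-05). Counting reads alone, *Csf2* was 48.4-fold higher in T_EM cells, with an exact 95% interval of 23.2 to 121 that covers counting error only. *Csf2ra* rose by 0.91 (SE 0.29, adjusted p = 0.0230), and 20 of 23 alternatives kept the call, with an adjusted p of 0.214 under quantile normalization. *Csf2rb* rose by 2.22 (SE 0.68, adjusted p = 0.0194) although its groups overlapped, and 16 of 23 alternatives kept the call. *Csf2rb2* had 1.35 (SE 0.81, adjusted p = 0.205). Without YFP+ naïve replicate 2 these were 3.17 (adjusted p = 2.0e-04) for *Csf2rb* and 2.25 (adjusted p = 0.0264) for *Csf2rb2*. In this comparison 9 of 12 conventional dendritic cell genes were called higher.

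Levels can be set between genes only per length. Divided by the exon length in kilobases (GENCODE M21, 800 bases for *Csf2*), YFP- T_EM cells had 537 ± 160 normalized counts per kb for *Csf2ra*, 516 ± 189 for *Csf2rb*, 387 ± 143 for *Csf1*, 367 ± 114 for *Csf2rb2* and 2.18 ± 1.12 for *Csf2* (SD, n = 3). The neighbours among the first 4 lay within each other's spread. In YFP+ T_EM cells the order was *Csf1* at 387 ± 157, *Csf2* at 144 ± 65.1, *Csf2ra* at 125 ± 27.3, *Csf2rb* at 39.8 ± 16.5 and *Csf2rb2* at 18.9 ± 10.9 per kb. *Csf2* and *Csf2ra* changed places there between libraries, since replicate 2 had 69.9 for *Csf2* and 157 for *Csf2ra*. The 800 bases of *Csf2* include the 3′ UTR, which follows the cassette in the changed allele. Its level per kb could therefore be too low, and its place in the order is uncertain. In YFP- naïve cells *Csf2ra* was the highest of the 5 genes in every library, at 51.9 ± 14.5 per kb. Per 1000 normalized counts of the 12 dendritic cell genes it had 32.2, 33.9 and 30.4 in these libraries, more than in any of the YFP- T_EM libraries.

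Around the receptor, listed genes of the signalling path, of IL-3 and IL-5 and of the inputs to *Csf2* were read in the same fit. Of 16 genes of GM-CSF receptor signalling, 1 was called higher (*Socs2*) and 1 lower (*Lyn*) in YFP+ T_EM cells, where 2.3% and 4.67% of all genes tested were, with a median log2 fold change of -0.03. *Lyn*, a Src family kinase of myeloid and B cells that binds the common beta chain, had 3653 to 7456 normalized counts in YFP- and 550 to 887 in YFP+ T_EM cells. It fell by 2.78 (SE 0.47, limma adjusted p = 0.0029). *Socs2*, an inhibitor induced by STAT5, had 840 to 908 in YFP- and 1544 to 2160 in YFP+ T_EM cells. It rose by 1.06 (SE 0.22, adjusted p = 0.0094), and the call was lost in 2 of 23 alternatives, with a highest adjusted p of 0.0576. The genes of the list with the highest mean over all 12 libraries, *Mcl1*, *Stat5b*, *Pik3r1* and *Jak2*, had log2 fold changes of -0.06, -0.05, 0.80 and 0.05, and none of these passed.

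Between T_EM and naïve YFP- cells the same list had 8 genes higher (*Jak2*, *Lyn*, *Ptpn11*, *Gab2*, *Inpp5d*, *Cish*, *Socs2* and *Bcl2l1*) and 4 lower (*Stat5b*, *Pik3r1*, *Socs3* and *Mcl1*), where 29.9% and 19.9% of all genes tested were. *Il3ra*, the IL-3 receptor alpha chain that pairs with both beta chains, had 832 to 1132 normalized counts in YFP- and 731 to 1259 in YFP+ T_EM cells. Its log2 fold change between them was -0.13 (adjusted p = 0.87), unlike those of the beta chain genes, though the difference between the genes was not tested. *Il5ra* had at most 9.30 normalized counts in any library, *Il5* and *Il34* were too low to be tested, and *Il3* and *Csf3* were not analysed here. *Csf3r*, the receptor of G-CSF, had a log2 fold change of 1.75 (adjusted p = 0.67).

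Of 8 cytokine receptor genes reported to induce *Csf2* in T cells, 4 were called higher in YFP+ than in YFP- T_EM cells and 0 lower, where 2.3% and 4.67% of all genes tested were, with a median log2 fold change of 0.75. Of 6 NK cell and ILC genes, 3 moved with them, *Klrb1c* from a mean of 154 to 1304 normalized counts, *Ncr1* from 0 to 32.6 and *Klre1* from 3.96 to 69.7. *Eomes*, *Il1rl1* and *Rora* were not called, with log2 fold changes of -0.43, -0.27 and 0.64. The part of NK cells and ILC in this result was not tested. *Il7r*, the IL-7 receptor, had 36099 to 42834 normalized counts in YFP- and 56981 to 77244 in YFP+ T_EM cells and rose by 0.84 (SE 0.13, limma adjusted p = 0.0017). *Il2rb*, the chain shared by IL-2 and IL-15, rose by 0.96 (SE 0.16, adjusted p = 0.0027), and both passed in 23 of 23 alternatives. *Il12rb1*, shared by IL-12 and IL-23, rose by 0.66 (SE 0.14, adjusted p = 0.0091). *Il23r* rose by 1.73 (SE 0.41, adjusted p = 0.0226), from 64.5 to 117 normalized counts in YFP- to 200 to 387 in YFP+ T_EM cells, and was listed at 0 in all 6 naïve libraries. It passed in 17 of 23 alternatives, with an adjusted p of 0.169 at a prior count of 0.1. *Il2ra* and *Il2rg* had log2 fold changes of 0.62 and 0.27 and did not pass. In naïve cells 0 of the 8 passed. The difference of the YFP effects was called higher for 3 of the 8 (*Il12rb1*, *Il2ra* and *Il2rb*) and lower for 0. Among all genes tested, 0.828% and 2.73% were. For *Il2ra* the log2 fold change was -1.06 in naïve cells and 0.62 in T_EM cells, and neither passed.

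Of 18 factors reported to act on *Csf2* transcription in T cells, 1 was called higher in YFP+ T_EM cells and 0 lower, against the same shares of all genes, with a median log2 fold change of 0.11. This was *Tbx21*, which encodes T-bet, at 2207 to 2692 normalized counts in YFP- and 3418 to 4363 in YFP+ T_EM cells. It rose by 0.68 (SE 0.19, limma adjusted p = 0.0477), and 10 of 23 alternatives lost the call. The factors with the highest mean over all 12 libraries, *Ets1*, *Junb*, *Nfatc1* and *Nfkb1*, had log2 fold changes from -0.10 to 0.24 and did not pass. In T_EM against naïve YFP- cells, 9 of the 18 were called higher and *Ets1* lower, where 29.9% and 19.9% of all genes tested were. *Bhlhe40*, a factor T cells need for GM-CSF, was among the former, with a mean of 82.3 ± 9.06 normalized counts in YFP- naïve and 6635 ± 2339 in YFP- T_EM cells (SD, n = 3). Its YFP+ T_EM mean was 7961 ± 3106, with overlapping ranges.

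**Figure D4:**
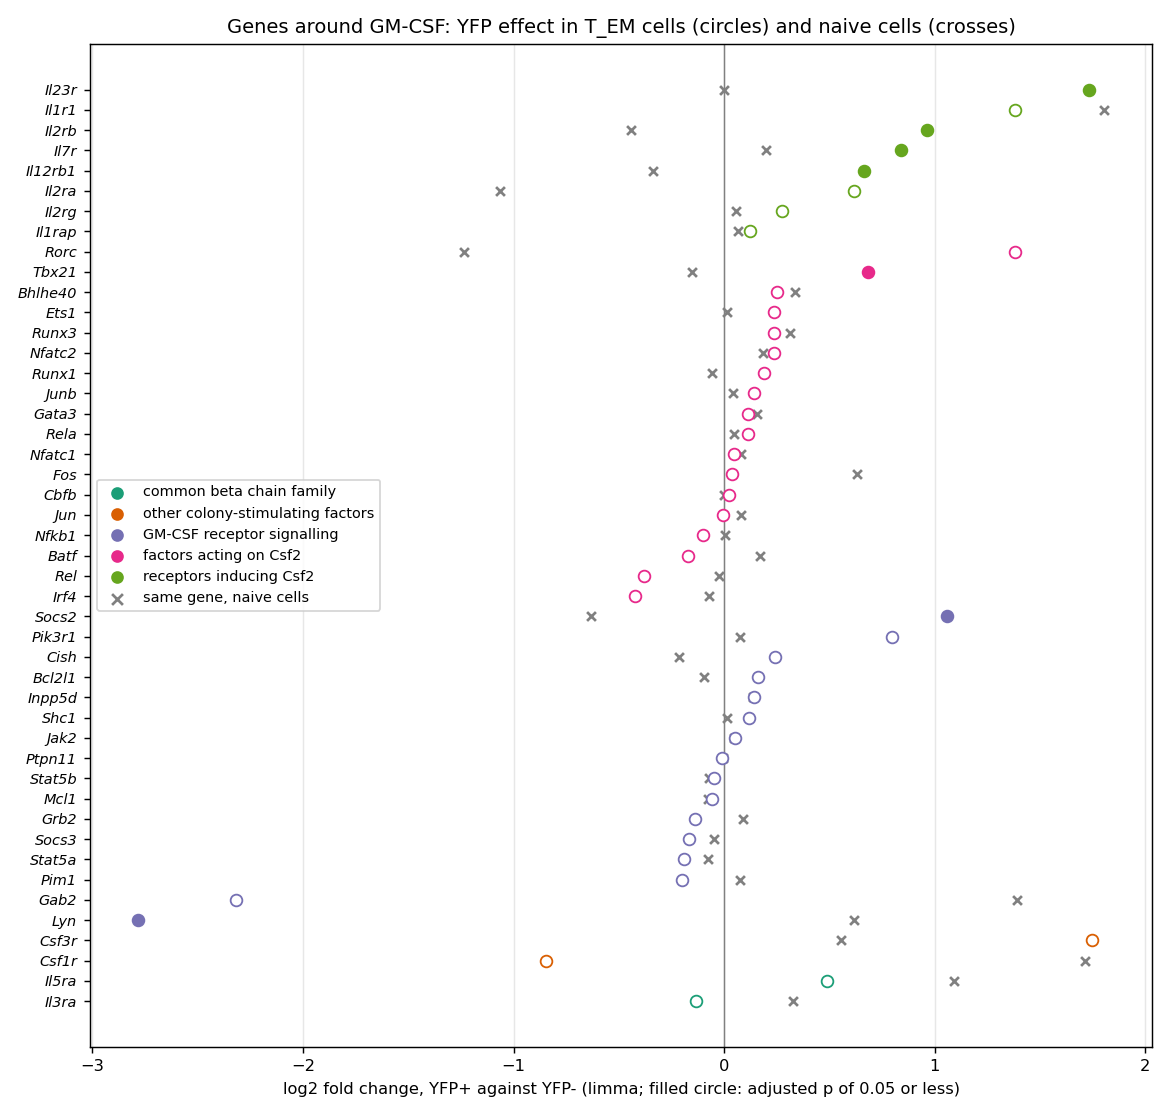
Log2 fold change of YFP+ against YFP- cells (x) for the 46 tested genes of 5 lists around GM-CSF, with a circle for T_EM cells, filled where the adjusted p was 0.05 or less, and a cross for the same gene in naïve cells. *Lyn* lies farthest to the left at -2.78, and the filled circles of *Il23r*, *Socs2*, *Il2rb*, *Il7r*, *Tbx21* and *Il12rb1* lie on the right.

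*Csf2rb* and *Csf2rb2* lie 20.1 kb apart, and both were called lower in YFP+ T_EM cells. Other genes beside the members on the chromosome were not called between YFP+ and YFP- T_EM cells. Within 100 kb of *Csf2rb* and *Csf2rb2* the table also held *Ncf4*, *Tst*, *Mpst*, *Kctd17* and *Tmprss6*. Their log2 fold changes were -0.24, 0.39, 0.14, -0.10 and 0.71 in this comparison, and none passed. *Ncf4*, a subunit of the phagocyte oxidase, lies 19.9 kb from *Csf2rb2* and had 3018 to 3376 normalized counts in YFP- and 2667 to 2783 in YFP+ T_EM cells. Beside *Csf2ra*, *Zfp950*, *Gm7102* and *Gm20762* had -0.13, -0.49 and -0.21, and beside *Csf1*, *Ahcyl1* had -0.01. The neighbour of *Csf2* in the table, *Acsl6*, had at most 3.94 normalized counts in any library and was not tested.

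The genes whose levels followed each member most closely were taken by Pearson r of log2 values over the 12 libraries, among 13962 other genes with a mean of at least 10. They are a description, since the libraries share their groups. For *Csf2* they were *Arhgef26*, *Aqp9*, *Fam184b*, *Mapk10* and *Klrc3*, with r from 0.955 to 0.966, and *Aqp9*, a channel for water and glycerol, had 787 to 1916 normalized counts in YFP+ T_EM cells and at most 54.0 elsewhere. For *Csf2rb* they were *Tyrobp*, *Tbc1d9*, *Tgm2*, *Cdk14* and *Pld4* (0.996 to 0.999), where *Tyrobp* encodes the adaptor DAP12 of myeloid and NK cells. For *Csf2rb2* they were *Zfp385a*, *Sirpa*, *Tifa*, *Mefv* and *Ifi207* (0.989 to 0.992), and *Sirpa* is a surface protein of myeloid cells. For *Csf2ra* they were *Aph1c*, *Tlr9*, *Tep1*, *Tcf4* and *Rgs12* (0.983 to 0.992), and *Tcf4* is a factor of plasmacytoid dendritic cells. For *Csf1* they were *Vsig10l*, *Atcay*, *Gm16702*, *Ttc39c* and *Dsel* (0.989 to 0.998), none of which passed between YFP+ and YFP- T_EM cells.

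The bases before the start of the receptor genes other than *Csf2rb*, and of *Csf2* and *Csf1*, were read on both strands for GAGGAA. This is the GGAA-type motif bound by PU.1, the product of *Spi1*. The motif was chosen because *Spi1* fell with the receptor genes (2072 to 4003 normalized counts in YFP- and 131 to 355 in YFP+ T_EM cells). The 250 bases before the RefSeq start held it at 2 places in *Csf2ra*, 1 in *Csf2rb2* and 0 in *Csf2* and *Csf1*, while 23.3% of all 32851 such windows held at least 1. For *Csf2* that start lies 232 bases upstream of the GENCODE M21 start, so its window is not the one next to the latter, and *Csf2rb* was not read. The 100 bases next to the *Csf2ra* start (GRCm38.p6, chr19:61228419-61228518, minus strand) carry both matches, in capitals. The start used for *Csf2ra*, at 61228418, lies inside the gene span given above, which ends at 61228461. Both matches therefore lie within the annotated gene and not before it. A match is only a run of letters, and a part of PU.1 in the receptor results was not tested.
Csf2ra: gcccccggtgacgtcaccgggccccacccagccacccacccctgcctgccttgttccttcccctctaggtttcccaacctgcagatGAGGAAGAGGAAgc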

How the data were processed

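The libraries were made from total RNA of sorted cells with a stranded kit. The authors mapped reads to mm10 with DRAGEN, counted them with Rsubread, and deposited a signal of normalized counts, reads divided by DESeq2 size factors. The annotation and strand setting are not given in the sources used here. Whole reads were recovered from 100% of values. Rows were named by Entrez identifier from RefSeq on GRCm38.p6, which left 774 of 17523 unnamed.

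Log2 of the normalized count plus 1 was fitted for 15587 genes, with a mean for each of 4 groups, 8 residual degrees of freedom and a variance trend (limma 3.58.1, R 4.3.3), and adjusted by Benjamini and Hochberg over all genes in each of 5 comparisons. This follows the unit of the file, while the authors tested counts with DESeq2. DESeq2 1.42.0 and edgeR 4.0.16 on the recovered reads were alternatives. The fit was checked on simulated counts that gave every gene the same dispersion and changed only genes with higher means, which leaves out *Csf2*. This check therefore does not cover genes near the floor or with a larger spread. The 5 members, the gene lists and the alternatives were chosen with earlier results of these data known. Genes named are the members, listed genes called in a YFP comparison, up to 4 genes of a list with the highest mean over the libraries, genes within 100 kb and the 5 genes most alike over the libraries. The rule also covers a gene that is not reported here. Named outside it after values were seen were *Bhlhe40*, *Chn2*, the marker genes given with values and the signalling genes called between T_EM and naïve YFP- cells.

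Same-numbered libraries of YFP+ and YFP- cells deviated together (correlations of residuals 0.180 to 0.356 in T_EM and 0.306 to 0.491 in naïve cells). The sources used here do not say whether they came from the same animal, and what they share was not tested.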

Additional observations from a re-analysis of the deposited data

Results flagged for a closer look

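The YFP effect, the log2 fold change of YFP+ against YFP- cells, differed between T_EM and naïve cells by a test of the difference itself for 4 of the 5 genes. The difference was 4.40 for *Csf2*, -2.44 for *Csf2ra*, -4.43 for *Csf2rb* and -6.71 for *Csf2rb2*. For *Csf2* and *Csf2rb* the call was lost in 9 and 5 of 23 alternatives. Groups of 3 libraries were not tested for a library far from the others.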

How the results depend on the processing

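Over 24 alternatives, the counts of 4 called genes in YFP+ against YFP- T_EM cells, 4 in T_EM against naïve YFP- cells and 0 in naïve cells stayed within 1.5 times, and without each library in turn they were 4, 4 and 0. The count for the difference of the YFP effects was 2 to 4 without each library, with 2 without YFP- T_EM replicate 1 and without YFP- T_EM replicate 3. For T_EM against naïve YFP+ cells it was 2 to 5, with 2 without YFP+ naïve replicate 1, 5 without YFP+ naïve replicate 2, and 2 with quantile normalization. Quantile normalization moved the median of all genes by -0.374 in T_EM against naïve YFP- cells, by -0.218 in YFP+ cells and by 0.122 in the difference. It turned *Csf2* in T_EM against naïve YFP- cells, at a few reads, from 0.68 to -0.95. The log2 fold change of *Csf1* between T_EM fractions was 0.0138 with quantile normalization, 0.0133 with TMM factors, 0.0316 in edgeR and -0.33 to 0.27 without each library. For *Csf2rb* in naïve cells it was -0.25 to 1.25 without each library. The causes were not tested. Of 570 values of the 25 gene and comparison pairs, 537 kept direction and side of the threshold, 24 lost the call, 1 gained it and 8 reversed. With the replicate block, which paired the libraries by number, the counts were 4, 0, 4, 4 and 4, and no call of a member changed. Depth limits *Csf2* outside YFP+ T_EM cells, where it had at most 4 reads in a library.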
